A study of Rattus norvegicus with 12 samples.

Results

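This account concerns 9 genes of the excitatory synapse in rat hippocampus, listed by name, out of 28959 rows in the deposited expression table. They are Grin1 (ENSRNOG00000011726), Grin2a (ENSRNOG00000033942) and Grin2b (ENSRNOG00000008766) for NMDA receptor subunits, and Gria1 (ENSRNOG00000045816), Gria3 (ENSRNOG00000007682) and Gria4 (ENSRNOG00000006957) for AMPA receptor subunits. Grm5 (ENSRNOG00000016429) encodes a metabotropic receptor, Dlg4 (ENSRNOG00000018526) the scaffold PSD-95, and Camk2a (ENSRNOG00000018712) a synaptic kinase. All 9 had a mean of at least 0.5 FPKM (reads scaled to gene length and library size), the minimum for testing, which 15253 rows reached.

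Hippocampal RNA of Sprague Dawley rats was sequenced as 12 libraries, 3 in each of 4 groups, at a stated age of 6 to 7 weeks. Ctrl-Sal denotes unstressed rats given saline, and CUMS-Sal denotes rats given saline that were exposed for 5 weeks to CUMS (chronic unpredictable mild stress), a series of changing stressors used to model depression. CUMS-Flx and CUMS-Alb rats had the same stress and received, in its last 7 days, the serotonin reuptake inhibitor fluoxetine (10 mg/kg/d per its samples' labels, but 7 mg/kg/d per the design text) or albiflorin, a monoterpene glycoside of peony root (7 mg/kg/d). No group received a drug without stress. Nothing in the labels ties each library to its own rat, and the p-values therefore reflect library-to-library spread, which may be technical.

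Glutamate released at excitatory synapses opens AMPA receptors, which carry the fast current, and NMDA receptors, which admit calcium when the cell is already depolarised. Calcium activates CaMKII, the kinase whose alpha subunit is made from Camk2a, and this step is central to synaptic strengthening in the hippocampus. PSD-95 holds NMDA receptors and, through auxiliary proteins, AMPA receptors in the postsynaptic density, while mGluR5, the product of Grm5, signals through G proteins at the edge of the synapse.

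RefSeq (build GRCr8) gave a promoter window, 250 bases before to 50 after an annotated start, for 5 of the 9 genes, namely Grin1, Gria4, Grm5, Dlg4 and Camk2a. Where a symbol has several starts in that set, the first listed was used and the others were not searched. The 250 upstream bases of Grin1 (chr3:28528755-28529004, minus strand) and Grm5 (chr1:150733503-150733752, plus strand) are shown because these genes had the largest differences between stressed and unstressed rats and their promoters differ in base composition. They run 5′ to 3′ toward the start, and capitals mark CpG dinucleotides.
Grin1: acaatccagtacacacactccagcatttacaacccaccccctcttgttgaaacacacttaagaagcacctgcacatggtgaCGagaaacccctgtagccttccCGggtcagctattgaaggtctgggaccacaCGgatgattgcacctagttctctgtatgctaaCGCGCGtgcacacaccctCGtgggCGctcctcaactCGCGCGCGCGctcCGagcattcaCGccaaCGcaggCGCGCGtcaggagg
Grm5: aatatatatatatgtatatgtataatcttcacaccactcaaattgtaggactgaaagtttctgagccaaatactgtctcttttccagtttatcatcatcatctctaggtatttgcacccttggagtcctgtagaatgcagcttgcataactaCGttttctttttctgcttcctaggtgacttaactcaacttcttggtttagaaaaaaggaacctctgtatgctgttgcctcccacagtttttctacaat
The Grin1 stretch holds 19 CpG and 57.6% G and C, and that of Grm5 holds 1 CpG and 36.4%. Over 33469 promoters of the same length in that set the medians were 5 CpG and 51.2%. The stretches of Gria4, Dlg4 and Camk2a held 14, 5 and 10 CpG.

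Each 300-base window was searched on both strands for GCGGGGGCG, the element bound by the activity-induced factor Egr1, for the GC box GGGCGG, which overlaps it by 5 letters in Grin1, and for the cAMP response element TGACGTCA. Of the 5 genes, Grin1 alone held the first, starting at base 26 after the start, as 2.73% of all promoters did. The match lies in the stretch below (chr3:28528710-28528739, minus strand), with the match in capitals.
Grin1 match: gcgtcaggaaGCGGGGGCGgtgggaggggt
The GC box was in the Grin1 window only among the 5 and in 33.1% of all promoters, and the cAMP response element was in none of the 5 and in 1.83% of all. A match is a run of letters and was not tested for binding.

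The 9 transcripts spanned a wide range of levels per length. Camk2a was the most abundant, at a mean of 1192 FPKM over the 12 libraries, above 99.8% of tested rows. Dlg4 followed at 240.6 FPKM, Gria1 at 177, Grin1 at 87.1 and Gria3 at 54.5. Each of these stood above the next in 12 of 12 libraries. The lower 4 lay close together, with Grm5 at 26.3 FPKM, Grin2a at 23.4, Gria4 at 19.8 and Grin2b at 19.4, and neighbours kept that order in 11, 10 and 8 of 12 libraries. Gria4 and Grin2b therefore did not differ beyond their spread. Gene lengths recovered from the values ran from 1465 bp for Camk2a to 5261 bp for Grin2b. Recovered reads ran from 891 in the lowest Grm5 library to 33741 in the highest Camk2a library, so that counting error is at most 3.35% of any value. The variation over all 12 libraries was wider than that for every gene, from a coefficient of variation of 4.71% for Gria3 to 14.7% for Grm5.

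**Figure D1:**
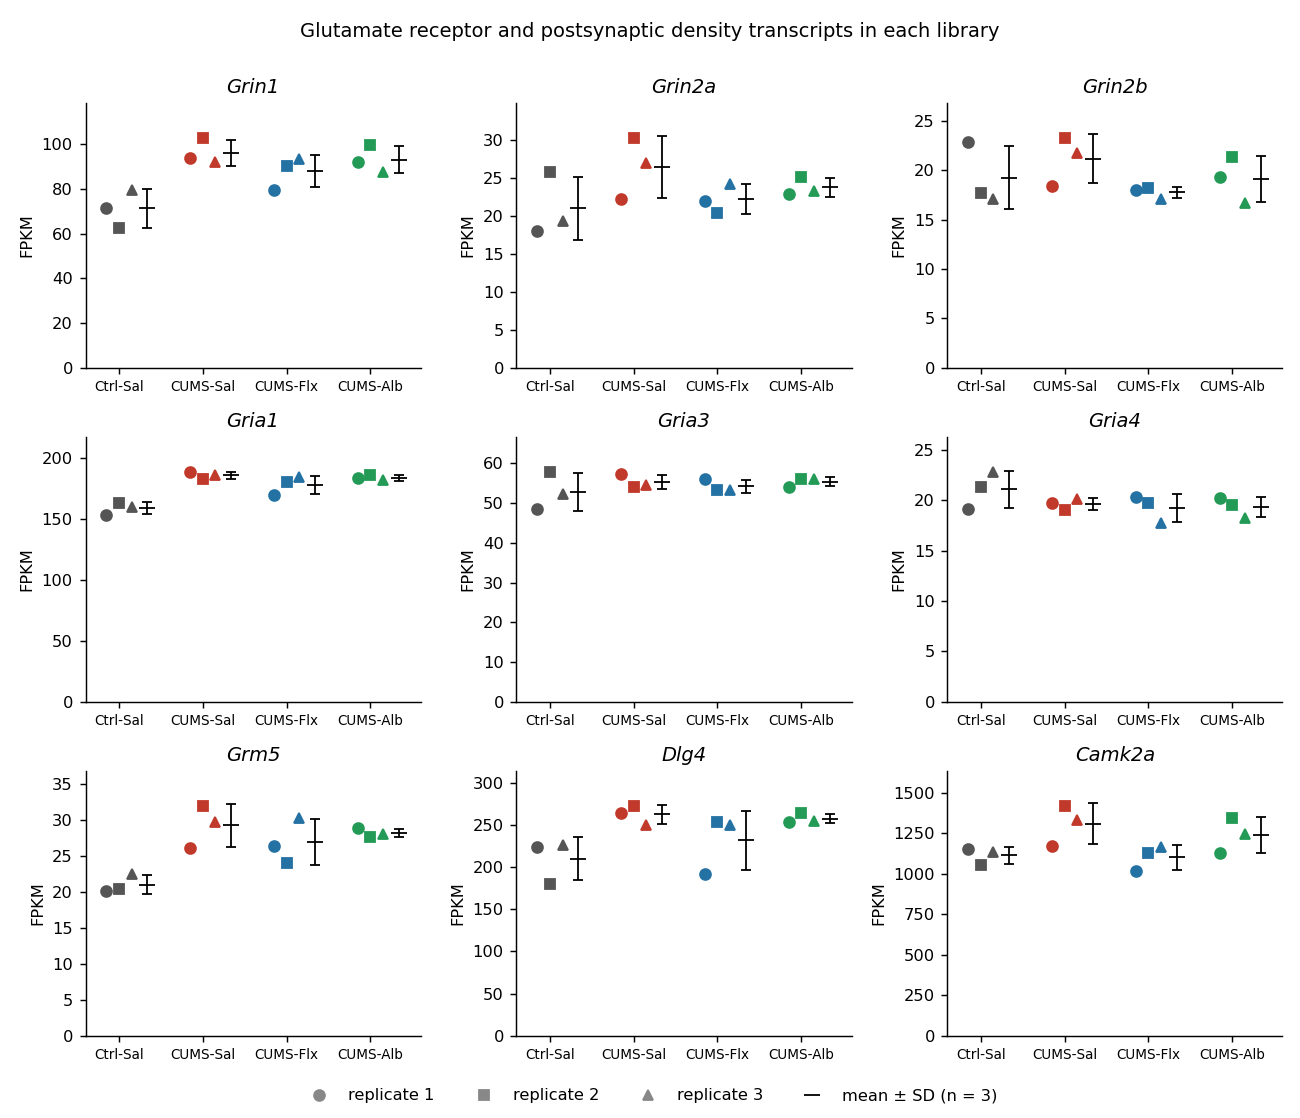
Level of each of the 9 transcripts in FPKM (vertical axes from 0) in each library of the 4 groups, with replicates as separate symbols and the mean and SD of 3 libraries beside them. The 3 CUMS-Sal libraries lie above the 3 Ctrl-Sal libraries for Grin1, Gria1, Grm5, Dlg4 and Camk2a, and overlap them for the other 4 genes.

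Facts of the whole series that touch these genes are few. Libraries held 14735953 to 18109623 reads. The 9 rows that each took over 1% of all reads held 17.4 to 22.0% of each Ctrl-Sal library but a mean of 14.9 ± 0.157% (SD, n = 3) of the CUMS-Sal libraries. CUMS-Flx replicate 1, at 18.8%, fell among the Ctrl-Sal values, and the other 5 drug libraries held 14.6 to 15.6%. Ctrl-Sal replicate 2 stood apart from the rest, with a median correlation of 0.977 with the other libraries against 0.989 to 0.992. Since the row IDs are not paired with gene names in the sources used here, marker genes of hippocampus or of other cell types, and other receptor genes such as Gria2, were not analysed here.

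CUMS-Sal against Ctrl-Sal asks whether stress goes with a change in these transcripts. Grm5, Grin1 and Gria1 rose, by 1.38-fold, 1.35-fold and 1.17-fold, and no member was called lower. Thus 3 of 9 were called, all higher, where 9.19% of tested rows were called, 8.05% higher and 1.14% lower. At an unadjusted p under 0.05 there were 6 of 9 members and 30% of rows. Among the 2645 rows in the members' range of length and at or above their lowest mean level, 10.9% were called higher. Calls are at an adjusted p under 0.05 over all rows in a limma fit of log2(FPKM + 0.5), and log2 differences are on that scale. In bulk tissue, more cells of a type and more RNA per cell cannot be told apart.

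Among the NMDA receptor genes, Grin1, which encodes the subunit every NMDA receptor needs, stood at 71.6, 62.6 and 79.7 FPKM in Ctrl-Sal replicates 1, 2 and 3 and at 93.7, 103 and 92.2 in CUMS-Sal. The groups did not overlap, and Ctrl-Sal replicate 2 was the lowest of all 12 libraries. The control mean was 71.3 ± 8.59 FPKM and the stressed mean 96.2 ± 5.77 (SD, n = 3), with a log2 difference of 0.44 (SE 0.09, 95% interval of the fold 1.18 to 1.55, adjusted p = 0.0278). The call was lost without Ctrl-Sal replicate 2 (log2 difference 0.35, adjusted p = 0.0531) and without CUMS-Sal replicate 1 (0.45, adjusted p = 0.0527).

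Grin2a and Grin2b encode the regulatory subunits that set how fast the receptor closes and what it binds inside the cell, and neither passed the test. Grin2a stood at 18.0, 25.8 and 19.3 FPKM in Ctrl-Sal against 22.2, 30.3 and 27.0 in CUMS-Sal, with a log2 difference of 0.33 (SE 0.13, adjusted p = 0.118). Here Ctrl-Sal replicate 2 was the high control library, above CUMS-Sal replicate 1. Without it the log2 difference was 0.48 and the adjusted p 0.045. Grin2b stood at 22.9, 17.7 and 17.1 FPKM in Ctrl-Sal against 18.5, 23.3 and 21.8 in CUMS-Sal, with a log2 difference of 0.14 (SE 0.12, adjusted p = 0.474). Its sign turned with library medians set equal, to -0.01, and with a trend by gene length removed, to -0.01.

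The ratio of Grin2a to Grin2b, which does not depend on library scaling, had a mean of 1.12 ± 0.334 for Ctrl-Sal, 1.25 ± 0.0501 for CUMS-Sal, 1.25 ± 0.149 in CUMS-Flx and 1.25 ± 0.123 in CUMS-Alb (SD, n = 3). The Ctrl-Sal libraries alone, from 0.786 to 1.45, spanned all the others. No test was made of this or the later ratios.

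Of the AMPA receptor genes, Gria1 passed the test and Gria3 and Gria4 did not, and no difference between them was tested. Gria1, for the subunit GluA1, stood at 153, 163 and 160.1 FPKM in Ctrl-Sal against 189, 183 and 186 in CUMS-Sal, tight groups that lay apart. Its log2 difference was 0.23 (SE 0.05, 95% interval of the fold 1.08 to 1.27, adjusted p = 0.0317). This call was lost when library medians were set equal (log2 difference 0.08, adjusted p = 0.449), when median deviations were set to 0 (0.12, adjusted p = 0.157), when levels were rescaled outside the 9 abundant rows (0.14, adjusted p = 0.113) and when a length trend was removed (0.11, adjusted p = 0.222). It was also lost without Ctrl-Sal replicate 1 (0.20, adjusted p = 0.0546) and without CUMS-Sal replicate 1 (0.22, adjusted p = 0.0685).

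Gria3, for GluA3, stood at 48.5, 57.9 and 52.3 FPKM in Ctrl-Sal against 57.4, 54.1 and 54.6 in CUMS-Sal. Its highest library of all 12 was Ctrl-Sal replicate 2. The log2 difference was 0.07 (SE 0.07, 95% interval of the fold 0.95 to 1.16, adjusted p = 0.513), and its sign turned under 4 of the alternative scalings. Gria4, for GluA4, an AMPA subunit found mainly early in development and in some interneurons, was the member with a negative difference, at 19.1, 21.3 and 22.8 FPKM in Ctrl-Sal, against 19.7, 19.0 and 20.2 with stress (log2 difference -0.10, SE 0.08, adjusted p = 0.425).

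The balance between AMPA subunit transcripts is free of library scaling. The ratio of Gria1 to Gria4 was 8.02, 7.65 and 7.01 in Ctrl-Sal, against 9.58, 9.63 and 9.22 in CUMS-Sal. It ran from 8.34 to 10.4 in CUMS-Flx and from 9.07 to 9.95 in CUMS-Alb, so that all 9 stressed libraries lay above the 3 unstressed ones, as did the ratio to Gria4 of 10.7% of tested rows. The ratio of Gria1 to Gria3 averaged 3.02 ± 0.177 for Ctrl-Sal against 3.36 ± 0.0631 for CUMS-Sal (SD, n = 3), without overlap, as for the ratio to Gria3 of 10.5% of tested rows. Its range of 3.02 to 3.47 in CUMS-Flx overlapped the 2.82 to 3.17 of Ctrl-Sal. In CUMS-Alb it ran from 3.25 to 3.40, with no share over all rows taken. Of the other member ratios computed, Grin1 to Gria1 and Camk2a to Dlg4 overlapped between Ctrl-Sal and every stressed group. Grin1 to Dlg4 ran from 0.3199 to 0.3521 in Ctrl-Sal and from 0.3541 to 0.3769 in CUMS-Sal. It ran from 0.3564 to 0.4158 in CUMS-Flx and from 0.3425 to 0.3771 in CUMS-Alb. No share over all rows was taken for this ratio.

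Grm5 had the largest difference of the 9. It stood at 20.1, 20.3 and 22.4 FPKM in Ctrl-Sal against 26.0, 31.9 and 29.6 in CUMS-Sal, with every stressed library above every control. The control mean was 21.0 ± 1.29 FPKM and the stressed mean 29.2 ± 2.97 (SD, n = 3). The log2 difference was 0.47 (SE 0.09, 95% interval 0.26 to 0.67, adjusted p = 0.0249). It was called under 14 of 19 alternatives, Grin1 under 11 and Gria1 under 6. All 3 calls ended without CUMS-Sal replicate 2 (adjusted p = 0.0957, 0.0986 and 0.0966 for Grm5, Grin1 and Gria1), without CUMS-Sal replicate 3 (0.0698, 0.0662 and 0.079) and when the fit held no other group (0.126, 0.128 and 0.136). In these fits their log2 differences were 0.40 to 0.47, 0.39 to 0.47 and 0.23 to 0.24. The fit that held only CUMS-Sal and Ctrl-Sal called 0 of all 15253 rows.

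The scaffold and the kinase did not pass the test, although their libraries did not overlap. Dlg4 stood at 224, 181 and 226 FPKM in Ctrl-Sal against 265, 273 and 250.4 with stress (log2 difference 0.33, SE 0.11, adjusted p = 0.0702). It was called by limma-voom on recovered reads (adjusted p = 0.0495, with 1849 of 15678 rows called) and without Ctrl-Sal replicate 3 (0.0454). Camk2a stood at 1152, 1056 and 1137 FPKM in Ctrl-Sal against 1170.4, 1421 and 1335 in CUMS-Sal, with CUMS-Sal replicate 1 close to the highest control (log2 difference 0.23, SE 0.09, adjusted p = 0.108). In all, 5 of 9 members had every CUMS-Sal library above every Ctrl-Sal library, as did 25.3% of tested rows, and none was lower without overlap, as 5.85% of rows were. Among rows in the members' range of length and level, 30% were higher without overlap. The count of all rows called, 1402, was 2637 without Ctrl-Sal replicate 3 and 369 without Ctrl-Sal replicate 2, and it was 327, 1 and 24 without CUMS-Sal replicates 1, 2 and 3.

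Over the 9 members the median log2 difference was 0.23, beside 0.10 for all tested rows and 0.07 for rows in the members' range of length and level. Once every library's median deviation was brought to 0, which removes the shift of 0.10, the members' median was 0.12, and 7 of 9 differences stayed positive. On that scale Grin1 was at 0.33 (adjusted p = 0.0437) and Grm5 at 0.36 (adjusted p = 0.0434), both called. Neither was called with library medians set equal (Grin1 0.28, adjusted p = 0.0508, and Grm5 0.31, adjusted p = 0.0531) or with the length trend removed (0.29, adjusted p = 0.0582, and 0.33, adjusted p = 0.0521).

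**Figure D2:**
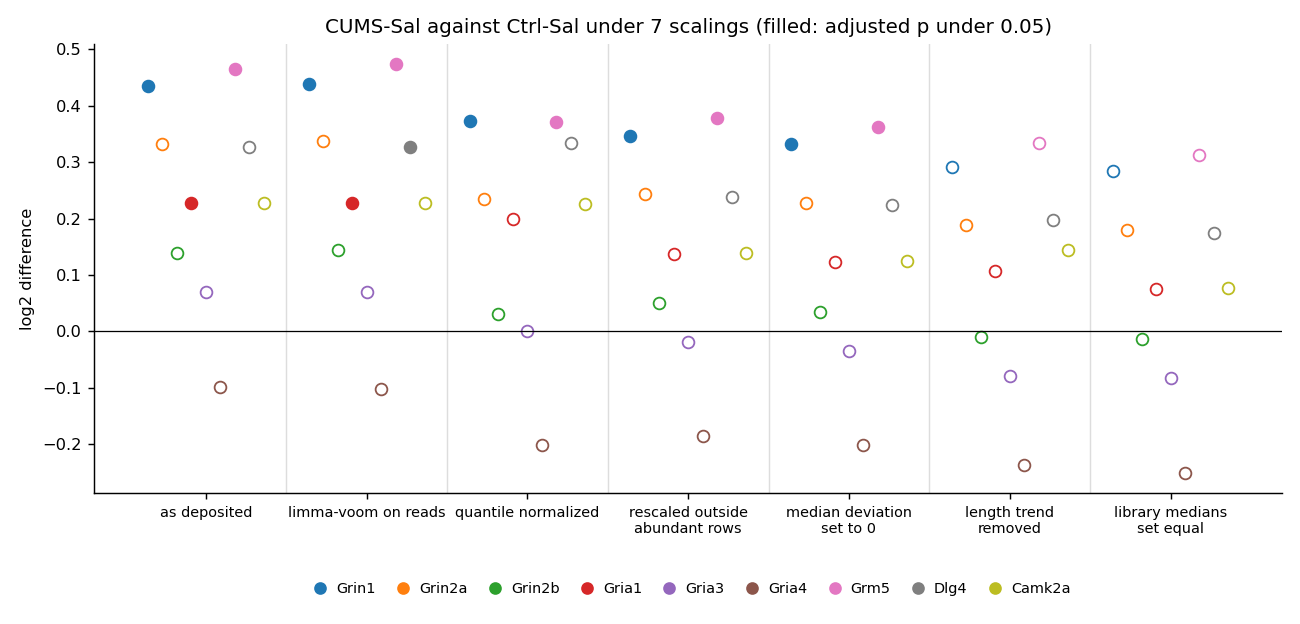
Log2 difference of CUMS-Sal from Ctrl-Sal (vertical axis) for each of the 9 genes under 7 ways of scaling the libraries (horizontal axis), with filled points at an adjusted p under 0.05. Grm5 and Grin1 are the 2 highest points under each and are filled in 5 of the 7, while Gria4 is the lowest point in each.

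For 3 of the genes, the lowest levels came with the highest share of reads in the 9 abundant rows. The 4 libraries with the highest share, the 3 of Ctrl-Sal and CUMS-Flx replicate 1, were the 4 lowest libraries for Grin1, Gria1 and Dlg4, which holds for 9.32% of tested rows. Since 3 of these 4 libraries are the whole Ctrl-Sal group, a high share and the absence of stress largely go together. For Grm5 and Grin2a, 3 of these 4 libraries were among the 4 lowest, for Grin2b, Gria3 and Camk2a 2 were, and for Gria4 1 was. A larger share leaves fewer reads for all other rows. Rescaled outside the abundant rows, the log2 difference between CUMS-Sal and Ctrl-Sal was 0.35 for Grin1 (adjusted p = 0.0409) and 0.38 for Grm5 (adjusted p = 0.0411). Gria1 moved from 0.23 to 0.14 and was not called (adjusted p = 0.113), and Dlg4, not called on either scale, was at 0.24 (adjusted p = 0.133). Whether RNA composition has a part in these differences was not tested.

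**Figure D3:**
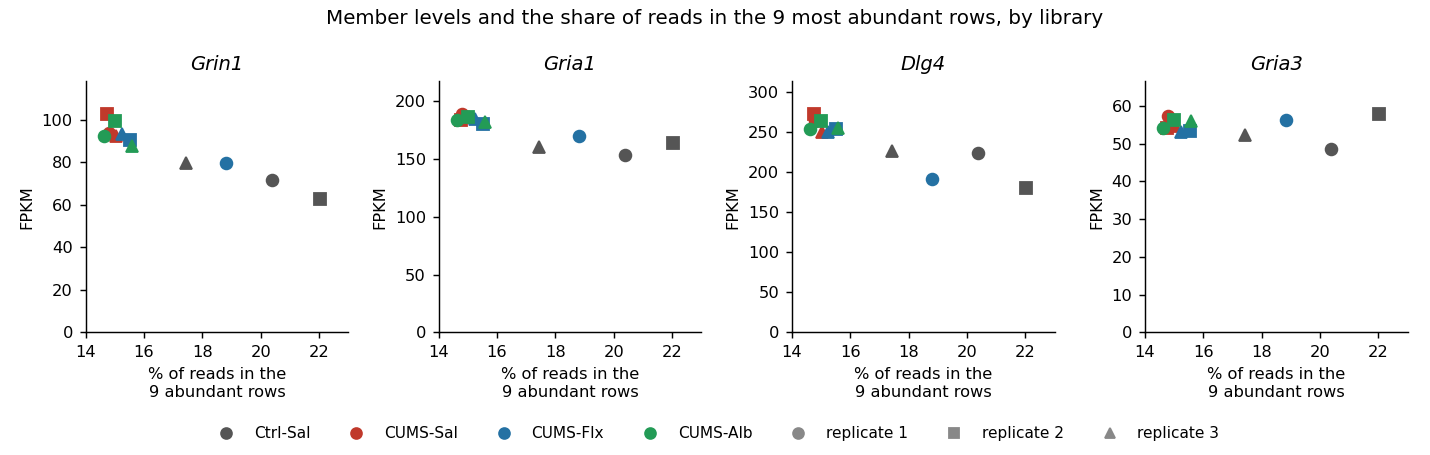
Level in FPKM (vertical axes from 0) of Grin1, Gria1, Dlg4 and Gria3 against the percentage of reads in the 9 most abundant rows (horizontal axes) in each of 12 libraries. The 3 Ctrl-Sal libraries and CUMS-Flx replicate 1, at 17.4 to 22.0%, are the 4 lowest for Grin1, Gria1 and Dlg4 but not for Gria3.

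Fluoxetine was compared with saline in stressed rats as CUMS-Flx against CUMS-Sal. No member passed the test. The 9 differences were negative, as were those of most rows (34.1% of all rows were positive), and with median deviations set to 0 there were 2 positive ones among the 9. By limma 0 of 9 members and 0% of tested rows were called, and limma-voom called 0 members and 0 of 15678 rows. At an unadjusted p under 0.05 by limma there was 1 member, Camk2a, and 9.98% of rows. The median was -0.13 for the members and -0.05 for all rows. Camk2a stood at 1016, 1127 and 1166 FPKM in CUMS-Flx, all below the 3 CUMS-Sal libraries (log2 difference -0.24, SE 0.09, adjusted p = 0.422). Grin2b stood at 18.0, 18.2 and 17.2 FPKM, also below its CUMS-Sal libraries (log2 difference -0.24, SE 0.12, adjusted p = 0.53). These were 2 of 9 members with non-overlapping lower libraries, against 13.6% of rows.

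For the genes called in CUMS-Sal, and for Dlg4, which was not called, the fluoxetine libraries overlapped those of stress alone. Grin1 stood at 79.7, 90.4 and 93.3 FPKM (log2 difference from CUMS-Sal -0.13, SE 0.09, adjusted p = 0.651) and Grm5 at 26.3, 24.0 and 30.3 (-0.12, SE 0.09, adjusted p = 0.688). Gria1 stood at 169, 180.3 and 184 FPKM and Dlg4 at 192, 254 and 249.7. Replicate 1 was the lowest of the 3 for Grin1, Gria1, Dlg4 and Camk2a. It was the highest for Gria3 and Gria4, and the middle one for Grin2a, Grin2b and Grm5. It is the library with the large share of abundant rows, and a link to that share was not tested. Without CUMS-Flx replicate 1, the log2 difference of Camk2a from CUMS-Sal was -0.19 (limma, adjusted p = 0.83). The 95% intervals of the 9 log2 differences together reached from -0.53 to 0.14, and those of all members but Camk2a included 0.

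Albiflorin was compared with saline in stressed rats as CUMS-Alb against CUMS-Sal, and no member passed the test. Limma called 0 of 9 members and 0% of rows, and limma-voom called 0 members and 0 of 15678 rows. By limma 0 members and 3.66% of rows had an unadjusted p under 0.05. Differences ran from -0.14 to 0.00 with a median of -0.05, against -0.01 for all rows. The most negative were those of Grin2b, at 19.3, 21.4 and 16.7 FPKM in CUMS-Alb (log2 difference -0.14, SE 0.12), and Grin2a, at 22.9, 25.2 and 23.3 FPKM (-0.14, SE 0.13), each at an adjusted p of 0.9996. The libraries of all 9 members overlapped, where those of 11.3% of rows did not. The intervals reached from -0.43 to 0.21.

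The drugs themselves were compared as CUMS-Alb against CUMS-Flx, at doses that the sources give differently for fluoxetine. No member was called. The 9 log2 differences lay between 0.01 and 0.17, where 65.1% of all rows were positive, and with median deviations set to 0 there were 7 positive ones among the 9. Limma called 0 of 9 and 0.00656% of rows, and limma-voom called 0 members and 1 of 15678 rows. By limma 0 members and 4.98% of rows had an unadjusted p under 0.05. The largest differences were those of Camk2a, at 1129, 1347 and 1244 FPKM in CUMS-Alb (log2 difference 0.17, SE 0.09, adjusted p = 0.955), and Dlg4, at 254, 264 and 255 FPKM (0.16, SE 0.11, adjusted p = 0.955). Libraries overlapped for all 9, where those of 13.7% of rows did not. The intervals reached from -0.19 to 0.40, with the median of all rows at 0.04.

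**Figure D4:**
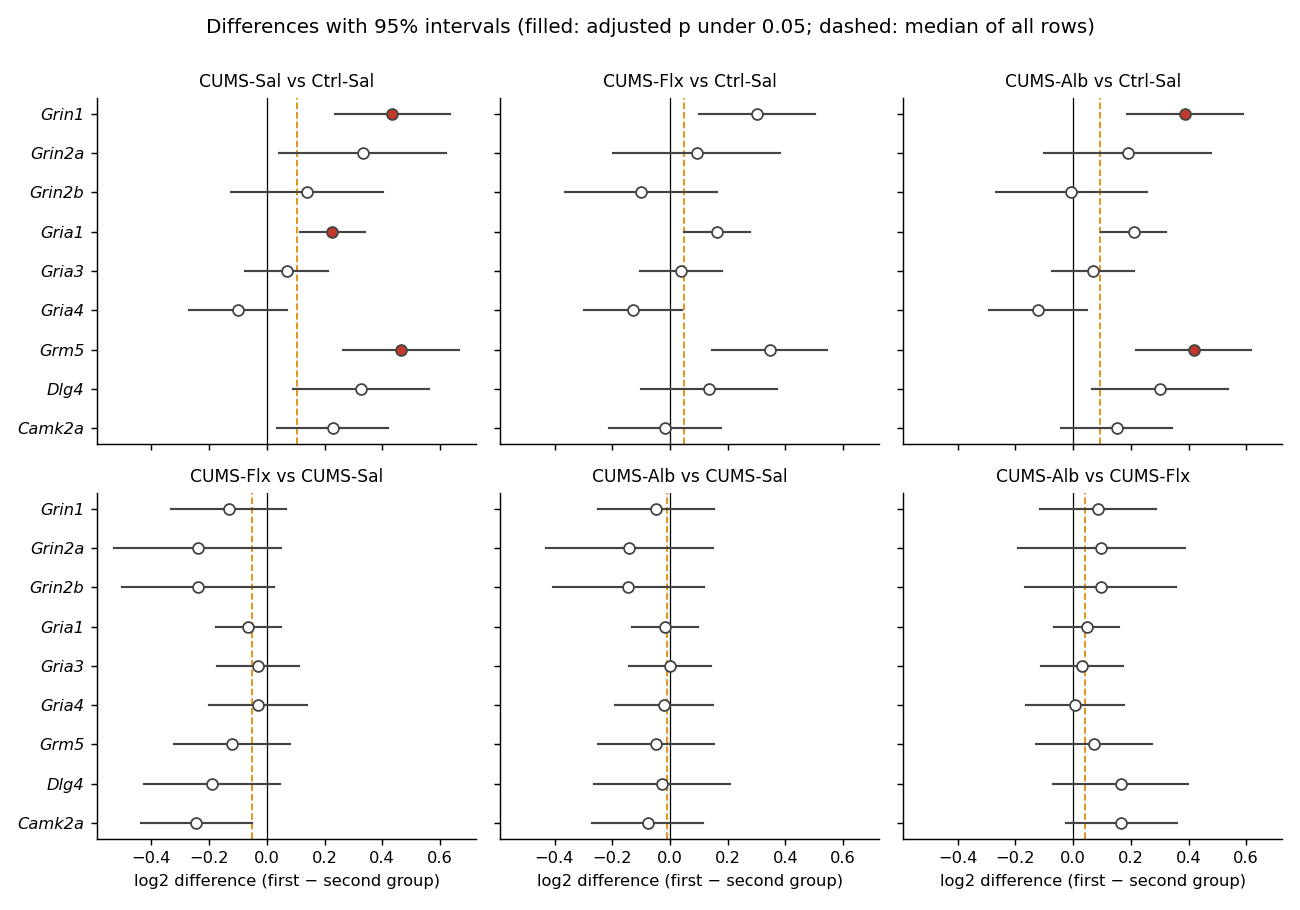
Log2 difference of each of the 9 genes with its 95% interval (horizontal axes) in the 6 comparisons of groups, filled where the adjusted p is under 0.05, with the median of all tested rows as a dashed line. Filled points are Grin1, Gria1 and Grm5 in CUMS-Sal and Grin1 and Grm5 in CUMS-Alb, each against Ctrl-Sal, and the lower 3 panels have none.

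Drug-treated stressed rats were also set against unstressed rats, comparisons that share the Ctrl-Sal libraries with the one for stress. In CUMS-Alb, Grm5 and Grin1 were again higher than in Ctrl-Sal, 2 of 9 members against 2.5% of rows called (2.18% higher, 0.321% lower, and 3.67% higher among rows in the members' range of length and level). Grm5 stood at 28.8, 27.6 and 28.0 FPKM (log2 difference 0.42, SE 0.09, adjusted p = 0.0462) and Grin1 at 92.2, 99.6 and 87.5 (0.39, SE 0.09, adjusted p = 0.0495). Both calls lay at the threshold. Of 19 alternatives, 5 kept that of Grm5 and 4 that of Grin1, and neither was kept without Ctrl-Sal replicate 1 or 2 or without any CUMS-Alb replicate. The count of all rows called, 381, was 2356 without Ctrl-Sal replicate 3 and 6 without Ctrl-Sal replicate 2, and it was 1, 0 and 0 without CUMS-Alb replicates 1, 2 and 3.

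Gria1 in CUMS-Alb stood at 184, 186 and 182 FPKM, all above the controls (log2 difference 0.21, SE 0.05, adjusted p = 0.0508), and so did Dlg4 (0.30, SE 0.11, adjusted p = 0.102). In all, 4 members did not overlap and were higher, as were 24.6% of rows. Limma-voom called 3 members and 1220 of 15678 rows. In the limma fit 4 members and 27.4% of rows had an unadjusted p under 0.05. The median was 0.19 for the members and 0.09 for all rows.

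In CUMS-Flx no member was called against Ctrl-Sal, where 0.0524% of rows were. Limma and limma-voom both called 0 of 9, and limma-voom called 54 of 15678 rows. By limma 3 members and 17.5% of rows had an unadjusted p under 0.05. Grm5 differed by 0.34 (SE 0.09, adjusted p = 0.126), Grin1 by 0.30 (SE 0.09, adjusted p = 0.159) and Gria1 by 0.16 (SE 0.05, adjusted p = 0.17). The CUMS-Flx libraries lay above all controls for Grm5 and Gria1, 2 of 9 members against 11.9% of rows. For Grin1, the lowest CUMS-Flx library and the highest Ctrl-Sal library were both at 79.7 FPKM. Camk2a stood at the level of the controls, 1103 ± 77.8 against 1115 ± 51.4 FPKM (SD, n = 3; log2 difference -0.02, SE 0.09, 95% interval of the fold 0.865 to 1.13). Without Ctrl-Sal replicate 3, Grin1 was called (log2 difference 0.39, adjusted p = 0.0437), in a fit that called 544 rows in place of 8.

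Over the 4 groups at once, the limma F test called 0 of 9 members and 0.0459% of rows. The smallest adjusted p were 0.0748 for Grm5, 0.0886 for Grin1 and 0.0914 for Gria1, and the largest was 0.817 for Gria3. At an unadjusted p under 0.05 there were 5 of 9 members and 23.2% of rows, and limma-voom called 2, Grin1 and Grm5, among 384 of 15678 rows. Group means ran in the order Ctrl-Sal, CUMS-Flx, CUMS-Alb, CUMS-Sal from low to high for 5 of 9 members (Grin1, Grin2a, Gria1, Grm5 and Dlg4), as for 18.3% of rows. The libraries of neighbours in that order overlapped, except for Gria1 and Grm5 between Ctrl-Sal and CUMS-Flx.

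The members did not vary as 1 block within groups. After group means were removed, the log2 values of Grin1 correlated over the 12 libraries at r = 0.85 with Dlg4 and 0.65 with Camk2a, while Gria3 ran against Dlg4 at r = -0.69. With 3 libraries per group, and scaling and composition shared by all genes of a library, these values are a description.

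Among 9263 other rows averaging 5 FPKM or more, those most like the members' mean profile over the 12 libraries were ENSRNOG00000059008 (Pearson r = 0.967) and ENSRNOG00000042929 (r = 0.96). The median r over these rows was 0.334, and 68 rows exceeded 0.9. ENSRNOG00000059008 stood at 8.44 to 9.08 FPKM in Ctrl-Sal, 11.8 to 13.7 in CUMS-Sal, 9.49 to 11.6 in CUMS-Flx and 10.4 to 12.2 in CUMS-Alb. ENSRNOG00000042929 stood at 16.9 to 18.2, 25.3 to 29.9, 19.6 to 24.8 and 24.0 to 25.7 FPKM in the same order. These rows were picked for their likeness, so that their separation of the groups follows from the choice. The names of these rows are not paired with their IDs here.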

How the data were processed

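Per the labels' protocols, frozen hippocampi gave TRIzol-extracted RNA for standard Illumina libraries. TopHat2 and build rn6 are named in the submitters' processing notes. Counter, annotation release and strand setting: not given in the sources used here. Values were deposited by the authors as FPKM, 1 column per sample. The deposited header names no unit, which was read from the values. Whole reads and gene lengths were recovered from the FPKM for 22737 of 22737 rows above 0 (tolerance 0.001 reads), which gave the depth. Limma 3.58.1 in R 4.3.3 (trend and robust) fitted log2(FPKM + 0.5) over 15253 rows averaging 0.5 FPKM or more and all 12 samples, 1 coefficient per group, with Benjamini-Hochberg adjustment over all rows. This scale understates changes of low rows. The fit was tested on simulated data, whose changed genes had larger folds than any member. Its power at the members' folds was not tested.

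All 9 members are named by rule, and others only by likeness of profile (mean of at least 5 FPKM, at most 2 IDs). Members and lists were chosen with earlier results of these data known. Of the row IDs, 0 were paired with symbols, so lists of other synaptic genes and cell type markers were not tested. Member symbols come from the study brief that lists their IDs. Genes that overlap others or share reads with copies could not be set apart. Alternatives were pseudocounts of 0.1 and 1, no filter or a minimum of 5 FPKM, 4 scalings, limma without trend and robust settings, only the groups compared, a replicate block, limma-voom on the recovered reads (rows averaging 10 or more) and leaving out each library. Removal of a length trend was chosen after seeing the data. Promoter sequences are from RefSeq, GRCr8, a build other than that of the table, and were matched by symbol. Figures used matplotlib 3.10.9.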

Additional observations from a re-analysis of the deposited data

How the results depend on the processing

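No called member difference changed its sign under any alternative. In CUMS-Sal against Ctrl-Sal, where 3 members were called, 1 was called with no filter, and 0 with library medians set equal, with the length trend removed or with only the groups compared. The rows called in all also fell, from 1402 of 15253 to 251 of 22737 with no filter. In the other fits just named they were 954, 526 and 0 of 15253, in that order. Leaving out 1 library gave 0 to 4. In CUMS-Alb against Ctrl-Sal, where 2 were called, 1 was called with a pseudocount of 0.1, and 0 with no filter, library medians set equal, quantile normalization, median deviations set to 0, rescaling outside the abundant rows, no trend and robust settings, the replicate block, the length trend removed or only the groups compared. The rows called in all went from 381 of 15253 to 333 with that pseudocount and to 3 of 22737 with no filter. In the fits named after these they were 157, 98, 28, 20, 0, 0, 0 and 1 of 15253, in that order. Leaving out 1 library gave 0 to 3. In CUMS-Flx against Ctrl-Sal leaving out 1 library gave 0 to 1. For any difference among the 4 groups limma-voom on recovered reads called 2, and leaving out 1 library gave 0 to 2. The other 3 comparisons had 0 under every alternative. The causes of these changes were not tested, save that fits of fewer samples have fewer degrees of freedom.

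The sign of the difference between CUMS-Sal and Ctrl-Sal turned for Grin2b with library medians set equal (-0.0132) and the length trend removed (-0.0106). For Gria3 it turned with library medians set equal (-0.0825), median deviations set to 0 (-0.0343), rescaling outside the abundant rows (-0.0195) and the length trend removed (-0.0788). For Camk2a in CUMS-Flx against Ctrl-Sal, leaving out 1 library gave -0.0581 to 0.0411. Of the 29 member differences not printed one by one, 17 changed sign under at least 1 alternative, none of them over 0.101 in size, and 0 were called under any.

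Same-numbered libraries of different groups did not visibly deviate together (r from -0.159 to 0.127 over 18 pairs). Of 12 libraries, 1 correlated best with its own number. With 3 libraries per group, a batch or run shared by number could go unseen and was not tested. With the replicate block 2 members, Grin1 and Grm5, were called in CUMS-Sal against Ctrl-Sal and 0 in CUMS-Alb against Ctrl-Sal. Depth was at least 891 reads for any member in any library.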
